A study of Felis catus with 12 samples.

Results

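The 10 genes described here are the ligands, receptors and binding proteins of the insulin-like growth factor (IGF) axis that were named for this description: IGF1, IGF2, IGF1R, IGF2R, IGFBP2, IGFBP3, IGFBP4, IGFBP5, IGFBP6 and IGFBP7. They are 10 of the 30785 genes listed in the deposited table, and they were taken by symbol. IGFBP6 was selected on its difference between cats with congestive heart failure (HF) and cats with arterial thromboembolism (ATE) in these same libraries, so its values for that contrast are given as a description with no test. Genes were tested if 3 or more of the 10 libraries of cats on the study's list of sequenced animals held 10 reads or more, which left 8715. Of the 10 members, 8 passed. IGF2 and IGFBP3 did not, with 0 and 1 such libraries, whereas IGF1, the nearest member on the other side of the limit, had 7.

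IGF1 and IGF2 are secreted growth factors that signal through the receptor tyrosine kinase IGF1R to the PI3K-AKT and MAPK cascades, which promote growth and survival of cells, cardiomyocytes included. IGF2R carries no kinase. It takes IGF2 up for degradation and sorts lysosomal enzymes. The IGF binding proteins hold the ligands outside the cell and are cut by proteases that set the ligands free.

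The study sequenced left ventricular free wall RNA, collected post mortem, from client-owned domestic cats (Felis catus) of mixed breeds that had spontaneous disease and no experimental treatment. RNA was read directly on Oxford Nanopore flow cells, without conversion to cDNA, with 1 library per cat and no replicate library. By the study's list of cats, 6 libraries came from cats with congestive HF (cats 11, 30, 31, 15, 35 and 37), 3 from cats with ATE, a clot lodged in an artery (cats 23, 10 and 38), and 1 (cat 36) from an animal with no known cardiac cause of death. The libraries labelled as cats 22 and 29 were not settled, since the list of sequenced cats names cats 16 and 25 in their place. By the list of all cats, cat 22 had ATE, whereas cats 29, 16 and 25 had no known cardiac death. The study's figure legends name the ATE group as HF with ATE, and its list gives heart failure as well as ATE for cat 10. The ATE group is thus not a group without heart failure. The groups were set by the clinical outcome and not by a formal diagnosis of cardiomyopathy, and ages of the cats differed. The library names carry 3 run codes, each with barcodes 1 to 4. The labels do not say what the codes are, and they were read here as flow cells: cats 11, 23, 30 and 31 on flow cell A, cats 10, 15, 35 and 36 on flow cell B, and cats 37, 38, 29 and 22 on flow cell C.

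Libraries held 789257 to 2263110 reads on genes, and the 10 members together took 0.0362% to 0.103% of them. The values are deposited values, which are reads divided by 1 size factor per library (0.699 to 2.07). They compare a gene between libraries, and not one gene with another, because no gene lengths were used. Ventricular muscle markers were abundant in every library: the summed deposited value of the 8 cardiomyocyte markers in the table ranged from 103385 to 238216, none of the 8 was at 0 in any library, and MYL2, the ventricular myosin light chain, ranged from 62266 to 165234. MYH7 was not analysed here. In bulk tissue, fewer cells of a type and less RNA per cell cannot be told apart.

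**Figure D1:**
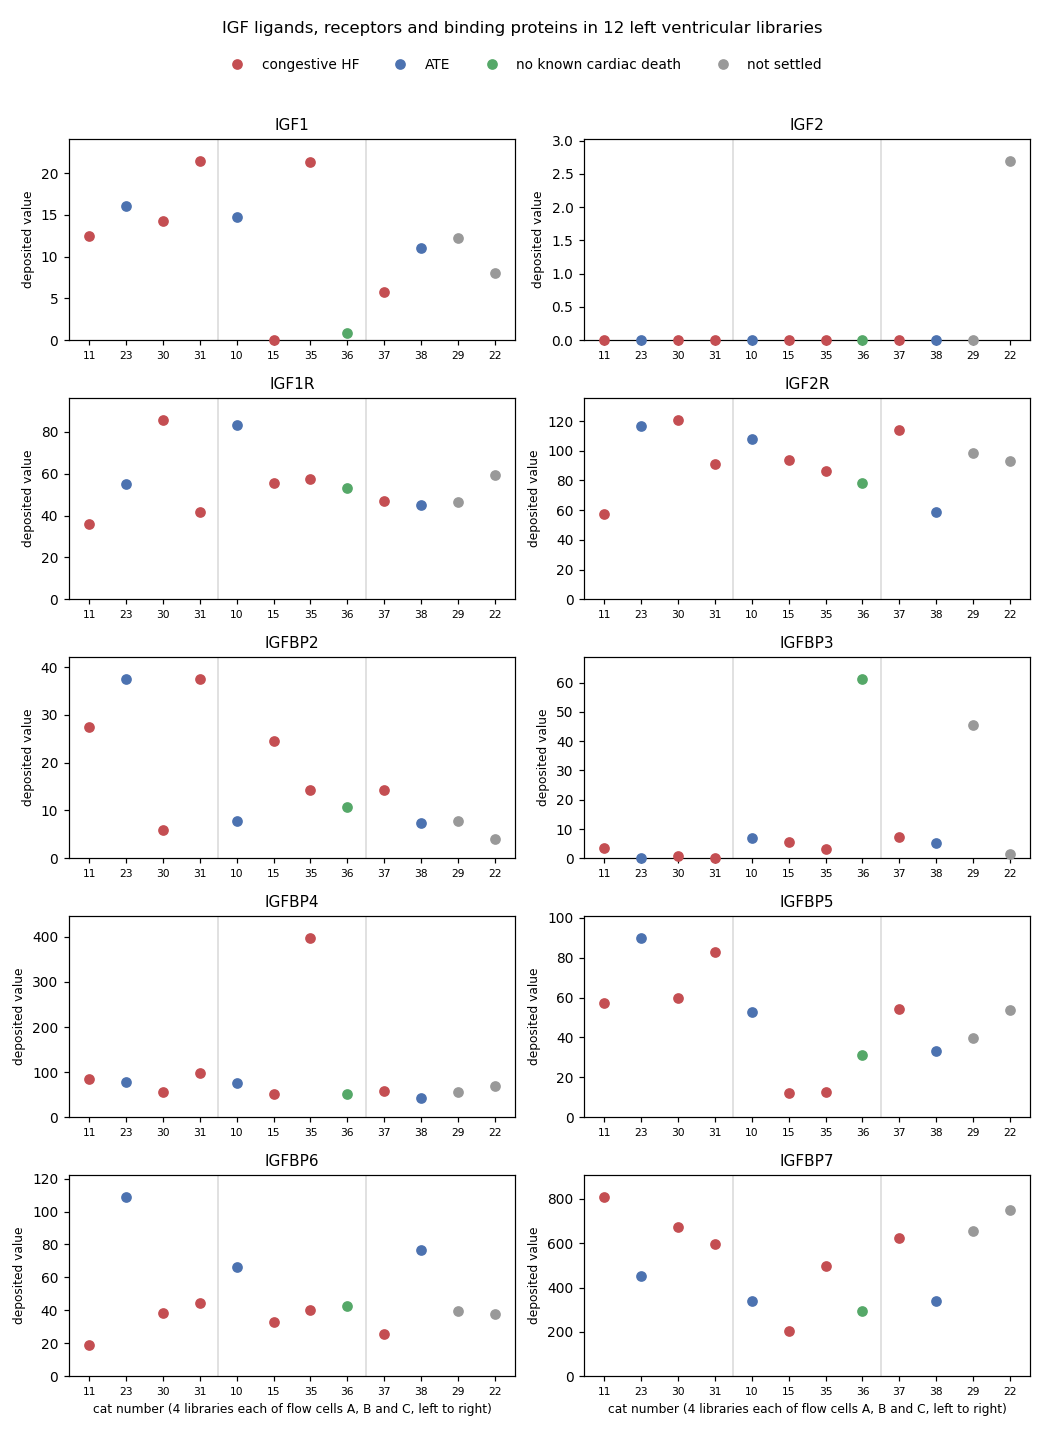
Deposited values (reads divided by the size factor of the library, linear axes from 0) of the 10 members in each of the 12 libraries. Each point is 1 cat, grey lines separate flow cells A, B and C, and colours give the outcome in the study's list. IGFBP4 stands at 398 in cat 35 and IGFBP3 at 61.4 and 45.4 in cats 36 and 29, each above all other libraries.

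Of the ligands, IGF1 was detected at low depth. Its deposited values on flow cell A were 12.5, 16.1, 14.3 and 21.5 for cats 11, 23, 30 and 31. On flow cell B they were 14.7 for cat 10, 0 for cat 15, 21.3 for cat 35 and 0.890 for cat 36, and on flow cell C 5.72, 11.0, 12.2 and 8.10 for cats 37, 38, 29 and 22. Cats 15 and 36 thus held next to no IGF1, with 0 and 1 reads, whereas cat 35 of the same flow cell held 27. A count of 0 in cat 15 allows a deposited value of up to 4.08 (3 reads), and such limits cover counting error only. IGF2, the fetal growth factor of the pair, was at 0 reads in 11 libraries and at 2 reads in the library labelled 22. The limit of 3 reads per library corresponds to deposited values of 1.45 to 4.29 across the libraries, so IGF2 was not detectable at this depth in those 11 libraries.

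The receptors varied least among the members that passed. IGF1R had a coefficient of variation over the 12 libraries of 27.4%, against 13.6% from counting error alone, and IGF2R, which had more reads, 22.4%. Deposited values of IGF1R on flow cell A were 36.2, 55.1, 85.9 and 41.5 for cats 11, 23, 30 and 31, on flow cell B 83.4, 55.8, 57.5 and 53.4 for cats 10, 15, 35 and 36, and on flow cell C 47.2, 44.9, 46.6 and 59.4 for cats 37, 38, 29 and 22. Cats 30 and 10 were the highest, and cat 11, the most deeply sequenced, was the lowest. For IGF2R the values were 57.4, 117, 121 and 90.9 on flow cell A, 108, 93.9, 86.6 and 78.4 on flow cell B, and 114, 58.8, 98.6 and 93.2 on flow cell C, in the same order of cats. Cats 11 and 38 were low, and the other 10 libraries lay between 78.4 and 121. The insulin receptor INSR, the nearest relative of IGF1R in the list of pathway genes, ranged from 29.1 to 66.5.

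IGFBP2, a binding protein that circulates in plasma, had 3 to 57 reads per library. Its deposited values were 27.5, 37.6, 5.89 and 37.5 on flow cell A (cats 11, 23, 30 and 31), 7.89, 24.5, 14.2 and 10.7 on flow cell B (cats 10, 15, 35 and 36), and 14.3, 7.35, 7.76 and 4.05 on flow cell C (cats 37, 38, 29 and 22). The 3 highest libraries were on flow cell A, whose other library, cat 30, was the second lowest of the 12.

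IGFBP3, the main carrier of IGFs in blood, was high in 2 libraries and near 0 in the rest. Cat 36 held 69 reads (deposited value 61.4) and the library labelled 29 held 41 (45.4). In the other 10 libraries there were 0 to 7 reads, and the deposited values did not exceed 7.15. Among binding protein reads of the members, IGFBP3 made up 12.5% in cat 36 (95% Wilson interval 9.96 to 15.5) and 5.38% in the library labelled 29 (3.99 to 7.22), against 0% to 1.65% in the others. Under either reading of its number the library labelled 29 came from a cat without known cardiac death, as did cat 36, whereas the library labelled 22, at 1.35, could be ATE or without known cardiac death. The pattern was singled out after the values were seen. The lower of both libraries stood 6.35 times above the next. Summed cardiomyocyte markers were also highest in these libraries, at 238216 in cat 36 and 192801 in the library labelled 29, against 103385 to 189633 in the others. Their part in the IGFBP3 values was not tested.

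IGFBP4, whose cleavage by the protease PAPPA frees IGF, stood apart in a single library. Its deposited value in cat 35 was 398, from 505 reads. The other 11 libraries ranged from 42.7 in cat 38 to 97.3 in cat 31, so cat 35 stood 4.09 times above the next. IGFBP4 made up 41.3% of the binding protein reads in cat 35 (95% Wilson interval 38.6 to 44.1) and 6.66% to 15.6% elsewhere. Counting IGFBP4 itself, 15 of the 8715 genes tested had a highest library at least that far above the next, and 8 of these peaked in cat 35. They were singled out after their values were seen and comprised ADM5, CLU (the chaperone clusterin), LOC111557947, VSIG4 (a complement receptor of tissue macrophages), KCNV2, RUFY1, S100A9 (a calcium-binding protein of neutrophils and monocytes) and IGFBP4.

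Summed macrophage and leukocyte markers, like IGFBP4, were highest in cat 35. The summed deposited value of the 7 listed genes was 839.7 there and 74.9 to 367 elsewhere, and 5 of the 7 were at their highest in cat 35, none of them at 0. CD163, a scavenger receptor of macrophages, was at 388 in cat 35, against at most 122 in the others, and the complement gene C1QA at 296, against at most 101. AIF1 (23.6, against at most 23.1) and PTPRC (11.8, against at most 9.57) were highest there by little. CD68 (29.1, against up to 43.9) and CSF1R (52.0, against up to 67.8) were not, so the list did not move as one. Cats 11 and 31, with the next highest sums (355 and 367), also had the next highest IGFBP4 values, 84.9 and 97.3. The order did not hold further down, as cat 38, next in sum at 208, had the lowest IGFBP4 value of all, 42.7. The part of macrophages and leukocytes in the IGFBP4 values was not tested. Cat 35 had IGFBP5 at 12.6, the second lowest value of that gene.

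**Figure D2:**
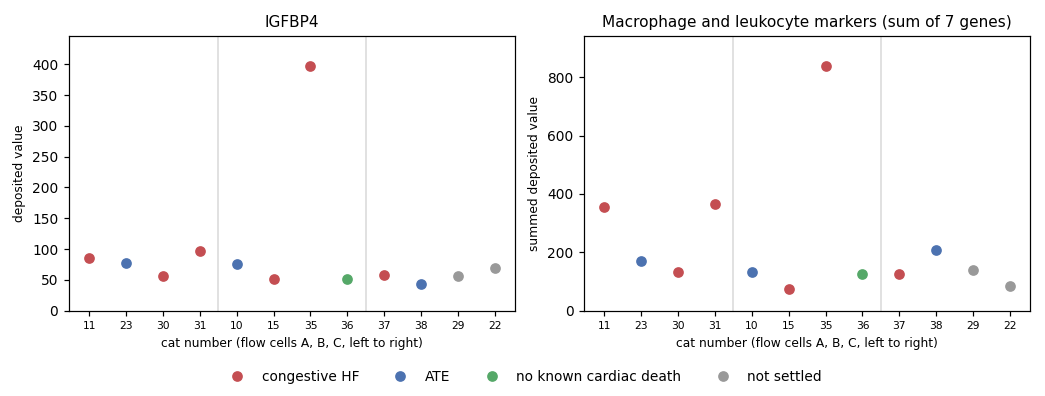
Deposited value of IGFBP4 (left) and the summed deposited value of 7 macrophage and leukocyte markers (right) in each library, on linear axes from 0, with 1 point per cat. Cat 35 is highest in both panels, at 398 and 839.7.

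IGFBP5, a binding protein of the extracellular matrix, was highest on flow cell A. Its deposited values there were 57.4, 90.0, 59.8 and 83.0 for cats 11, 23, 30 and 31. They were 53.0, 12.3, 12.6 and 31.2 on flow cell B (cats 10, 15, 35 and 36) and 54.4, 33.1, 39.9 and 54.0 on flow cell C (cats 37, 38, 29 and 22). The lowest library of flow cell A lay above the highest of the other 8, and cats 15 and 35, both with congestive HF, were the lowest of all.

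IGFBP6, which binds IGF2 in preference to IGF1, had deposited values of 18.8, 109, 38.7 and 44.7 on flow cell A (cats 11, 23, 30 and 31), 66.5, 32.7, 40.2 and 42.7 on flow cell B (cats 10, 15, 35 and 36), and 25.8, 76.5, 39.9 and 37.8 on flow cell C (cats 37, 38, 29 and 22). The 3 highest libraries were those of the 3 cats with ATE, 1 on each flow cell. IGFBP7, a low-affinity binding protein known from vascular endothelium, had 150 to 1677 reads per library and the smallest counting error of the members. Its deposited values were 809, 451, 673 and 598 on flow cell A, 340.4, 204, 495 and 296 on flow cell B, and 625, 340.5, 655 and 749 on flow cell C, in the same order of cats. Cats 11 and 22 were the highest and cat 15 the lowest. Summed endothelial markers were highest in cat 15, at 1626, against 455 to 1167 in the other 11 libraries. VWF (923), EGFL7 (305) and ENG (133) were at their highest there, whereas CDH5 (96.7) was second lowest and PECAM1, KDR and TEK lay inside the range of the other libraries, so the list did not move as one. None of the 7 genes was at 0 in any library, and their part in the IGFBP7 values was not tested.

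The outcome contrast, on which IGFBP6 was chosen, was as follows. Deposited values of IGFBP6 were 66.5, 76.5 and 109 in the 3 cats with ATE. In the 6 cats with congestive HF they ran from 18.8 to 44.7 with a median of 35.7, so the median was 2.14 times higher with ATE and the groups did not overlap. Of the 8715 genes tested, 87 (0.998%) had all ATE libraries above all congestive HF libraries, and nothing is read from this count since the rule used the contrast. The cat without known cardiac death was at 42.7, inside the congestive HF range, and so were the unsettled libraries labelled 29 (39.9) and 22 (37.8). If the library labelled 22 were counted with ATE, the groups would overlap and the ATE median would be 71.5. On whole reads without scaling the gap narrowed, with 56 reads in the highest congestive HF library and 59 in the lowest ATE library.

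IGFBP6 is expressed by fibroblasts, and the fibroblast markers are given beside it. Their summed deposited value was 785 to 3382 in ATE (median 1632) and 366 to 1634 in congestive HF (median 1074), with none of the 8 genes at 0 in any library. As a percentage of that sum, IGFBP6 was 3.22, 8.48 and 4.69 in cats 23, 10 and 38 and 1.15 to 8.92 in the cats with congestive HF, so on this scale the groups overlapped. Cat 23 was highest for 5 of the 8 fibroblast markers as well as for IGFBP6. It was not highest for COL1A1 and FBLN1 and was the lowest library for TCF21, so the list did not move as one. The part of fibroblasts in the contrast was not tested.

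The other members overlapped between the outcomes, and are likewise given without a test. IGFBP7 had a median of 612 in congestive HF (204 to 809) and values of 340.4, 340.5 and 451 in ATE, a congestive HF median 1.80 times the other. Of the 6 cats with congestive HF, only cat 15, at 204, lay below the ATE cats. IGFBP2 had a congestive HF median of 19.4 (5.89 to 37.5), whereas the ATE cats were at 7.35, 7.89 and 37.6. For IGF1, IGF1R, IGF2R, IGFBP4 and IGFBP5 the ratio of the ATE median to the congestive HF median lay between 0.948 and 1.17. On whole reads without scaling the direction turned for IGF1, IGFBP4, IGF2R and IGF1R, with log2 ratios of -0.73, -0.70, -0.36 and -0.04. IGFBP3 was at 7.15 or less in both groups.

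**Figure D3:**
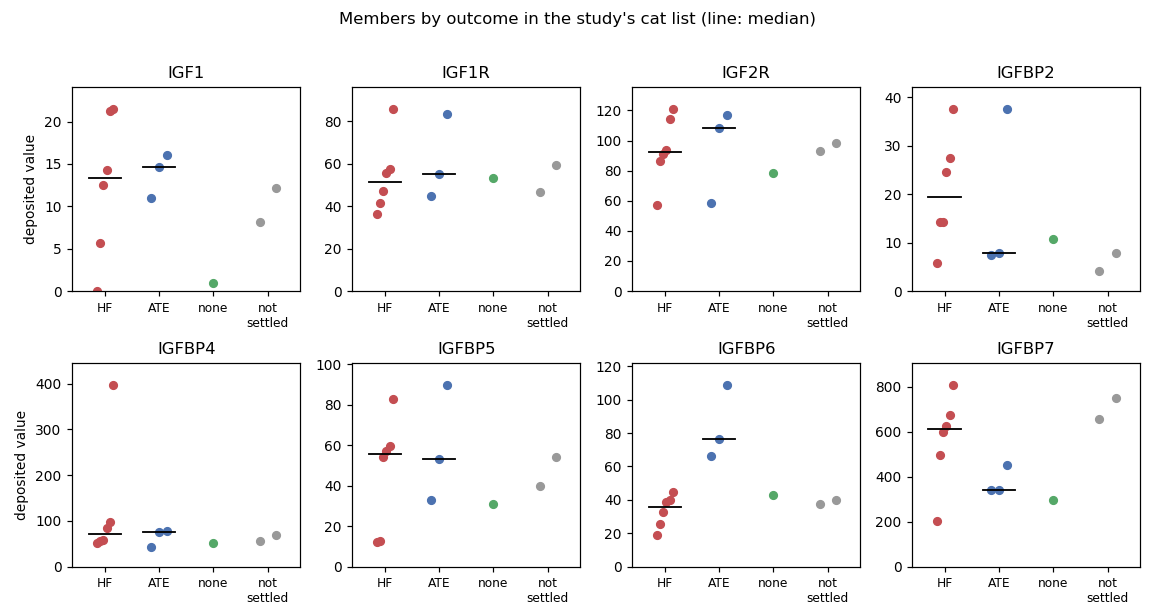
Deposited values of the 8 members that passed the filter, by outcome in the study's list of cats (HF, congestive heart failure; none, no known cardiac death; not settled, libraries labelled 22 and 29). Points are cats, black lines are medians of groups of 3 or more, and axes are linear from 0. Only in IGFBP6 do the ATE points (66.5 to 109) clear all congestive HF points (18.8 to 44.7).

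The run code, read as a flow cell, is the only grouping in the library names. Flow cell A (4 libraries) was set against flow cells B and C (8 libraries) by limma on log2(deposited value + 1), a scale that understates changes of low genes. This split was chosen with earlier results of these data known, so its counts and p-values are not those of a split set in advance. None of the 8 members tested was called at an adjusted p under 0.05. Over all genes, 446 (5.12%) were called, 305 of them lower on flow cell A and 141 (1.62% of all tested) higher. Among the members 2 of 8 had an unadjusted p under 0.05, beside 1863 (21.4%) of all genes, and edgeR's quasi-likelihood test and DESeq2 on whole reads each called 0. Flow cell and cat cannot be told apart, because each cat was sequenced once. The p-values rest on the spread between cats within flow cell A and within flow cells B and C pooled, any difference between B and C included.

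The member nearest the threshold was IGFBP5, with a mean of 72.5 ± 16.4 (SD, n = 4) on flow cell A and 36.3 ± 17.4 (SD, n = 8) on the others. The log2 difference was 1.14 ± 0.39 (SE, limma adjusted p = 0.0969), and libraries did not overlap, as was the case with flow cell A on top for 150 genes (1.72%). IGFBP2 averaged 27.1 ± 14.9 (SD, n = 4) against 11.3 ± 6.37 (SD, n = 8), with a log2 difference of 1.07 ± 0.48 (SE, limma adjusted p = 0.207). Cat 30 decided this value, since without it the difference was 1.65 with a limma adjusted p of 0.0330. IGF1 differed by 1.25 ± 0.69 (SE, limma adjusted p = 0.307) and IGFBP7 by 0.54 ± 0.31 (SE, limma adjusted p = 0.319). For IGF1R, IGF2R, IGFBP4 and IGFBP6 the log2 difference lay between -0.09 and 0.09, with SEs of 0.23 to 0.44, and its sign depended on single libraries. Summed smooth muscle and pericyte markers (7 genes) were 451 to 1336 on flow cell A and 134 to 371 on the other flow cells, and these groups did not overlap. TAGLN (188 to 744 against 28.6 to 134) and CNN1 (47.1 to 439 against 0 to 19.2) carried that difference, whereas the other 5 genes overlapped, as with ACTA2 (104 to 126 against 49.0 to 152). At most 1 of the 7 genes was at 0 in any library. Their part in the IGFBP5 values was not tested.

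The other genes of the insulin and IGF pathway were taken from a list of 50, of which 43 passed the filter. IGFBP1, INSRR and PAPPA2 had 0 reads in all libraries, and IGFALS, which joins IGFBP3 or IGFBP5 with IGF in the circulating complex, had 9 reads in total. Of the 43, 1 gene was called higher and 2 lower on flow cell A by limma, beside 446 (5.12%) of all 8715 genes tested. The difference was positive for 25 of the 43, with a median of 0.21. Over all genes tested it was positive for 4566 of 8715, with a median of 0.03. ADAMTS1, a secreted matrix protease, was higher by 1.37 ± 0.29 on the log2 scale (SE, limma adjusted p = 0.0151), with 117 to 218 on flow cell A and 31.3 to 113 on flow cells B and C. The lysosomal protease CTSD had a difference of -1.30 ± 0.30 (SE, limma adjusted p = 0.0206), with 128 to 498 on flow cell A and 414 to 813 on the others. GRB14, an adaptor that restrains insulin receptor signalling, had -1.27 ± 0.34 (SE, limma adjusted p = 0.0400), with 26.9 to 65.7 against 44.6 to 222. All 3 calls were lost without cat 11 or without cat 31 (limma adjusted p of 0.0909 and 0.0592 for ADAMTS1, 0.117 and 0.0869 for CTSD, 0.146 and 0.116 for GRB14).

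The members were next set against age and against the histological percentages of myocardial fibrosis and of adipocytes of the same animals. Age was on hand for 9 cats, fibrosis for 8 and the adipocyte percentage for 10. Spearman's rho with a permutation test was adjusted over all 8715 genes, and the 24 relations of 8 members with 3 traits were read from it. No member was called for any trait. The background was the same, at 0% of genes for age, 0% for fibrosis and 0% for adipocytes, with 415, 247 and 269 genes at an unadjusted permutation p under 0.05. With 8 to 10 cats, a call by permutation needed a perfect or almost perfect rank order, for fibrosis in several genes at once. The 0 calls were thus close to settled by the number of cats and say little about the members. The slope by limma also called 0 genes for each trait, with 401, 230 and 333 at an unadjusted p under 0.05.

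Both receptors had their largest rho with age. For IGF2R, rho was 0.767 (exact permutation p = 0.0214, adjusted p = 0.851) and Pearson's r 0.697 (exact permutation p = 0.0404). Without the 2 cats farthest from the median age r was 0.704 or 0.645, as cats 15 and 36 were equally far, and centred within flow cells it was 0.698 (exact permutation p = 0.0521). For IGF1R, rho was 0.70 (exact permutation p = 0.0433, adjusted p = 0.897) and r 0.630 (exact permutation p = 0.0721), with 0.388 or 0.503 without the 2 cats and 0.715 within flow cells (exact permutation p = 0.108). Neither passed the correction over all genes. Library depth moved with age too, with a rho of -0.70 between total reads and age over the 9 cats, and on whole reads without scaling rho was -0.167 for IGF2R and -0.0753 for IGF1R. The other 6 members had rhos of -0.183 to 0.117 with age.

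With myocardial fibrosis, IGFBP2 had the largest rho of the members, 0.714 (exact permutation p = 0.0576, adjusted p = 1.0), and Pearson's r was 0.756 (exact permutation p = 0.0349). Cats 23 and 15 lay farthest from the median in fibrosis, and leaving them out brought r to 0.372, so the relation rested on those cats, and within flow cells r was 0.740 over 7 cats (exact permutation p = 0.125). With the unsettled libraries entered as cats 22 and 29, rho was 0.418, and as cats 16 and 25 in either order it was 0.576 or 0.685. IGFBP6 had a rho of 0.0714 (exact permutation p = 0.882, adjusted p = 1.0) and a Pearson's r of 0.214 (exact permutation p = 0.602), with r at -0.165 without cats 23 and 15 and 0.334 within flow cells (exact permutation p = 0.639). The other 6 rhos lay between -0.333 and 0.238. Among them IGFBP7 had a rho of -0.286 (exact permutation p = 0.501, adjusted p = 1.0) and a Pearson's r of -0.374 (exact permutation p = 0.357), which was -0.830 over 7 cats within flow cells (exact permutation p = 0.0556) and -0.0219 without cats 23 and 15. With the adipocyte percentage, IGFBP7 had a rho of -0.600 (permutation p = 0.0734, adjusted p = 1.0) and an r of -0.510 (permutation p = 0.133), with -0.712 without cats 36 and 31 and -0.556 within flow cells (permutation p = 0.150). With the unsettled libraries entered as cats 16 and 25 in either order this rho was -0.224 or -0.252, and as cats 22 and 29 it was -0.462. The other 7 members had rhos of -0.345 to 0.358. Per the study's methods, slides of cats 10, 15, 23, 30 and 36 were stained and scanned in a second batch. Their adipocyte percentages came from a separately trained classifier, and the part of this batch in the rhos was not tested. Fat cell markers were scarce in the tissue sequenced, with summed deposited values of 3.86 to 17.3 for the 5 genes in the table. All 3 counts of pathway genes called for a trait were 0 of 43, with 1, 3 and 2 at an unadjusted permutation p under 0.05 for age, fibrosis and adipocytes.

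**Figure D4:**
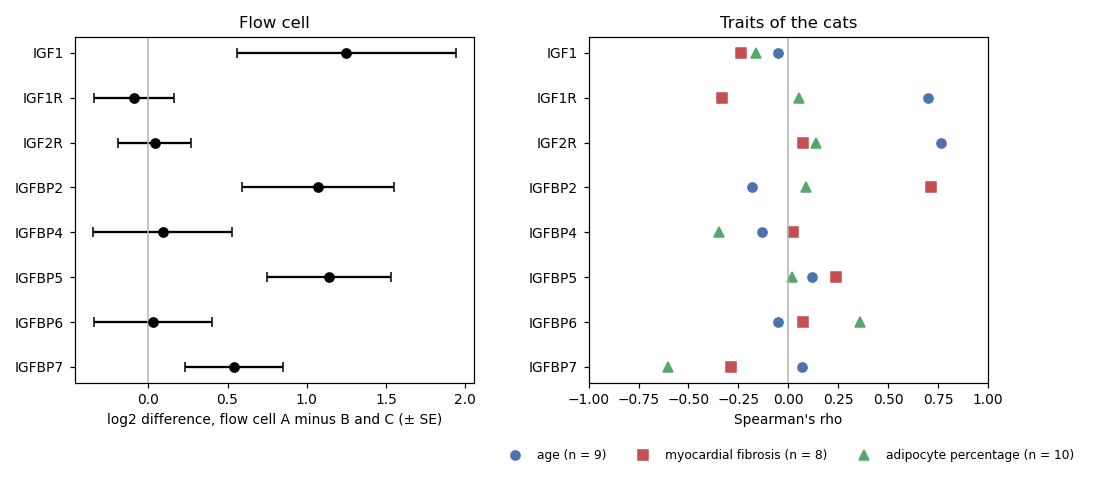
Left, log2 difference of each member between flow cell A (4 libraries) and flow cells B and C (8 libraries), with points for the limma estimate and bars for its SE. Right, Spearman's rho of each member with age (9 cats), myocardial fibrosis (8 cats) and adipocyte percentage (10 cats). IGF1, IGFBP2 and IGFBP5 have differences of 1.07 to 1.25, and IGF1R and IGF2R have rhos of 0.70 and 0.767 with age, none of which passed the threshold after adjustment over all genes.

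The members did not rise and fall as a block. Over the 12 libraries, the 28 pairs of tested members had a Pearson's r of log2 values from -0.502 to 0.651 with a median of 0.0649, and 17 were positive, a description in which all points share flow cells and depth. The pair of receptors had 0.632, IGF1 and IGFBP7 had 0.651, and IGF1R and IGFBP2 had -0.502. The genes most like each member by the same measure, chosen as the highest of all tested genes and so without a test, differed between members. For IGFBP4 they were RUFY1, CLU and S100A6 (r of 0.891, 0.877 and 0.856), of which RUFY1 and CLU were also highest in cat 35. For IGFBP5 they were RPS6KC1, FYTTD1 and ACTA1 (0.920, 0.918 and 0.917), the last being skeletal muscle actin, and for IGFBP7 TLNRD1, TRMT6 and PIGX (0.930, 0.923 and 0.901). For IGFBP6 they were RNPC3, ARHGEF17 and WNK2 (0.865, 0.840 and 0.817). IGF1R was followed by RREB1, LOC111558695 and CLEC14A, an endothelial surface protein (0.914, 0.860 and 0.833), and IGF2R by REPIN1, KLHL24 and CB1H4orf47 (0.842, 0.815 and 0.809). For IGF1 they were LOC102899273, PPT1 and TBC1D10B (0.917, 0.911 and 0.905), and for IGFBP2 UHRF1BP1L, LOC101092731 and PSMD6 (0.852, 0.832 and 0.827).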

How the data were processed

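Per the study's methods, base calling was done with Guppy, low-quality reads were dropped, Minimap2 aligned the rest to the felCat9 assembly and FeatureCounts assigned them to genes. The signal deposited by the authors is this read number over a median-of-ratios size factor: in each library, 100% of entries came out as whole reads (relative tolerance 1e-06). Whole reads recovered from them were used for the filter and for edgeR and DESeq2.

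Log2(value + 1) was fitted with limma (intensity trend) for flow cells, and Spearman's rho was tested by exact permutation of cats, or 100000 random permutations for 10 cats, all two-sided with Benjamini-Hochberg adjustment. Trait values came from the study's list of cats. Both fits were tested on simulated data. By rule, the genes named were the 10 members, pathway genes called in a comparison and the 3 genes most like each member. Markers, pathway genes near or below the filter, INSR and the genes peaking in cat 35 are named besides, the last after their values were seen. Members, lists and the contrast of flow cell A with the others were chosen with earlier results of these data known. Marker lists also covered epicardial and mesothelial cells, with summed values of 4.43 to 30.0 over 3 genes. Gene coordinates and sequences were not used here. Fits ran in R 4.3.3 (limma 3.58.1, edgeR 4.0.16, DESeq2 1.42.0) and permutations in Python 3.11.15 (scipy 1.17.1, numpy 2.4.6, pandas 2.3.3).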

Additional observations from a re-analysis of the deposited data

Results flagged for a closer look

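In the groups of 4 libraries that shared a flow cell, 6 member values stood far from their group by Dixon's criterion (the gap to the nearest value over the range, at the 95% level) among 28 groups examined. Chance gives about 1 in 20 for normally distributed values. Values from low counts are not of that kind, so no excess is read from this number. On flow cell B the values flagged were IGFBP4 in cat 35 (398), IGFBP3 in cat 36 (61.4) and IGF1R in cat 10 (83.4). On flow cell C they were IGFBP3 in the library labelled 29 (45.4), IGF1R in the library labelled 22 (59.4) and IGF2 in the library labelled 22 (2.70, from 2 reads, below the limit of 3 reads). The IGF1R value of the library labelled 22 lay within the range of that gene on flow cell A, 36.2 to 85.9.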

How the results depend on the processing

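The count of genes called between flow cell A and the others was 446 and became 829 with DESeq2, and from 51 to 501 when 1 library was left out. It was 51 without cat 11, 129 without cat 31 and 295 without cat 15, and 317 of 18070 genes without the filter. The share called higher was 31.6%, and 43.7% with edgeR, 40.4% with DESeq2 and 40.1% without the filter, but 17.6% without cat 11 and 20.2% without cat 31. Of 157 member values under these alternatives, 1 passed the threshold, IGFBP2 without cat 30. Signs turned for members near 0: IGFBP4 was -0.36 with edgeR and ran from -0.02 (without cat 31 or cat 38) to 0.44 (without cat 35) with 1 library left out. IGFBP6 was -0.02 in the 10 libraries of listed cats and -0.41, -0.03 and -0.08 without cats 23, 15 and 37, with a highest value of 0.42 without cat 11. IGF1R was 0.08 and 0.01 without cats 11 and 31 and lowest at -0.33 without cat 30. IGF2R was -0.07, -0.08 and -0.04 without cats 23, 30 and 38 and highest at 0.27 without cat 11. The cause was not tested. GRB14 lost its call without the filter (adjusted p = 0.0569, limma) and with TMM scaling (adjusted p = 0.0510, limma), and in 7 of 12 fits with 1 library left out. Without scaling of reads, rho was -0.0753 for IGF1R and -0.167 for IGF2R with age and -0.143 for IGFBP6 with fibrosis. That last rho was also -0.139 with the 2 unsettled libraries entered as cats 22 and 29, and -0.393 without cat 23, against 0.321 without cat 11. It was -0.0303 with library 22 entered as cat 16 and library 29 as cat 25, and 0.0424 in the other order. The count of genes called for the adipocyte percentage was 0 and became 0 to 1 with a cat left out, 1 without cat 11. No alternative called a member for a trait (smallest adjusted p 0.641 for age, 0.728 for fibrosis and 0.898 for adipocytes, by permutation). With so few cats a call needed a perfect or very close rank order, in many genes at once for fibrosis with a cat left out. The lack of calls under the alternatives thus says little about the members. Among relations not described singly, the sign of rho changed under some alternative for 6 of 6 with age, 4 of 6 with fibrosis and 5 of 7 with adipocytes. The ATE libraries stayed above all congestive HF libraries in IGFBP6 with TMM scaling and on unscaled reads, and overlapped them with the library labelled 22 entered as ATE, an alternative added after the data were seen. Counting error limits IGF2 most (2 reads in all), and then IGF1, IGFBP3 and IGFBP2, with counting coefficients of variation of 29.8%, 29.6% and 24.8%.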
